A study of Homo sapiens with 6 samples.

Results

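Proteasome genes were examined in chromatin of HEK293T cells, an established human line of embryonic kidney origin that expresses SV40 large T. They were taken by symbol as every protein-coding gene named PSMA, PSMB, PSMC, PSMD, PSME, PSMF or PSMG plus a number, which gave 48 genes out of 19451 that code for protein, span 1 kb or more and lie on chromosomes 1 to 22 or X. Not all of them encode subunits: the rule also takes in activators, an inhibitor and assembly factors. The chromatin was immunoprecipitated and sequenced (ChIP-seq) with 5 antibodies, and the authors' peak lists are named here after them: H2AZ CST and H2AZ Abcam for the pair of antibodies to the histone variant H2A.Z, H3.3 for that variant, H4K16ac for histone H4 acetylated at lysine 16, and H3K79me2 for histone H3 dimethylated at lysine 79. A further library of input chromatin was not analysed here. The labels give no treatment and no genetic change for any of the 6 libraries, and all cells were fixed with formaldehyde. Each antibody had 1 library, so there was no spread between replicates and no test; intervals on shares are exact binomial 95% intervals and cover counting error only. Peak lists hold no expression or genotype, so the identity of the line was not checked. In a bulk library a weak peak cannot be told apart from a peak carried by fewer cells. Coordinates are those of hg38 (GRCh38), 1-based.

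The proteasome degrades proteins tagged with ubiquitin. Its core particle is a barrel of alpha subunits (PSMA), which form the gate, and beta subunits (PSMB), some of which are the proteases. The regulatory particle caps the barrel: its base holds the ring of ATPases (PSMC) that unfold substrates together with large scaffold subunits, and its lid removes ubiquitin. Interferon swaps the proteolytic beta subunits for PSMB8, PSMB9 and PSMB10, which favour peptides for presentation by MHC class I. PSMA8 belongs to the proteasome of male germ cells and PSMB11 to that of the thymic cortex. H2A.Z is found in nucleosomes that flank the start of active genes, H3.3 is deposited where nucleosomes turn over, KAT8 places H4K16ac, and DOT1L places H3K79me2 over the first part of transcribed genes.

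Most proteasome genes carried H2AZ and H3K79me2 at an end, whereas H4K16ac was found at about the share seen over all protein-coding genes. A gene was counted when a peak overlapped the window of 1 kb on both sides of either annotated end. H2AZ CST lay at 44 of 48 members (91.7%, interval 80.0 to 97.7%), against 70.7% of all protein-coding genes. H2AZ Abcam lay at 42 members (87.5%, 74.8 to 95.3%), against 71.1% of all. H3K79me2 also lay at 42 members (87.5%, 74.8 to 95.3%), against 55.4% of all, the widest gap of the 5 lists. H3.3 was found at 37 members (77.1%, 62.7 to 88.0%), against 64.5%, and H4K16ac at 28 (58.3%, 43.2 to 72.4%), against 55.0%. The interval for H3.3 and that for H4K16ac held the value of all genes. With only the 10000 strongest peaks of each list the direction turned for both: H3.3 lay at 20.8% of members, against 28.3% of all genes, and H4K16ac at 8.33%, against 16.3%. H2AZ Abcam then lay at 20 members (41.7%), near the 39.4% of all genes, and H2AZ CST at 28 (58.3%, against 37.4%), while H3K79me2 lay at 38 (79.2%, against 43.4%). All 5 lists met at 23 members (47.9%, 33.3 to 62.8%), against 38.2% of all genes, a value inside the interval. At 3 members (PSMA6, PSMA8 and PSMF1) no list had an end peak (6.25%, 1.31 to 17.2%), against 21.5% of all genes.

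**Figure D1:**
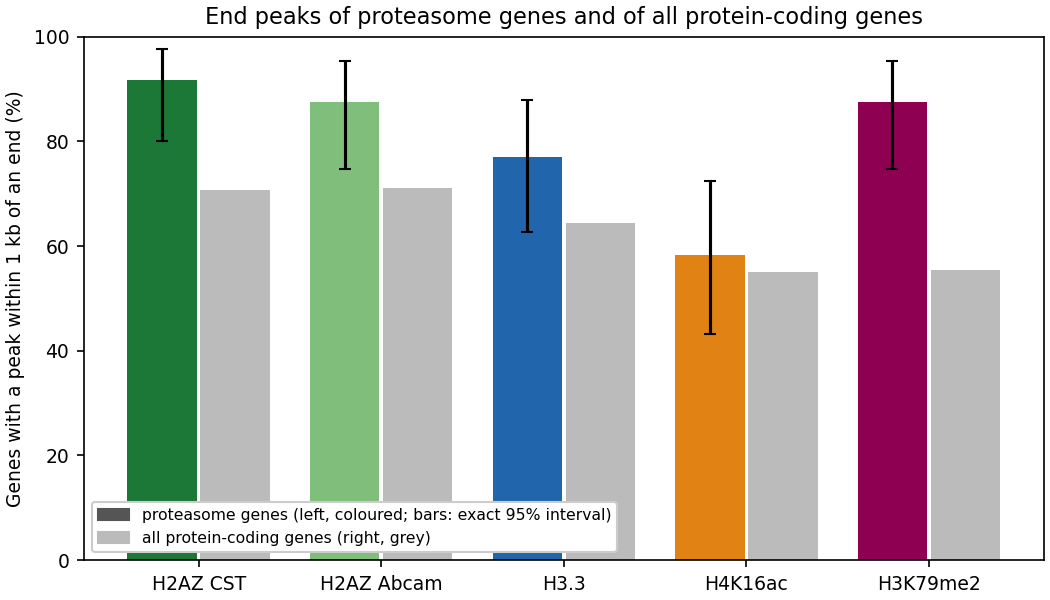
Share of genes with a peak within 1 kb of either annotated end (percent, y axis) for each peak list (x axis), in the 48 proteasome genes (coloured bars with exact 95% binomial intervals) and in all 19451 protein-coding genes (grey bars). The gap is widest for H3K79me2, at 87.5% against 55.4%, and narrow for H4K16ac, at 58.3% against 55.0%.

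Both H2AZ lists met at 42 members (87.5%, against 68.2% of all genes), and both with H3K79me2 at 41 (85.4%, against 53.1%). Of those 42 members with both H2AZ lists at an end, 41 had H3K79me2 (97.6%, 87.4 to 99.9%), against 77.9% of all genes with both H2AZ lists, and PSMB8 was the member without it. The H3K79me2 peak counted for PSMB9 lay outside that gene. H3.3 was found at 35 of these 42 (83.3%), against 86.8% of such genes. H4K16ac was found at 26 of 42 (61.9%, 45.6 to 76.4%), against 71.8%. After the 23 members with all lists, the most frequent combination was all but H4K16ac, found at 12 of 48 members, against 10.1% of all genes. These members were PSMA3, PSMA5, PSMB1 to PSMB4, PSMC4, PSMD4, PSMD13, PSME2, PSME4 and PSMG2. A further 4 members (PSMB7, PSMC2, PSMC6 and PSMD10) lacked both H3.3 and H4K16ac, a combination of 3.36% of all genes, and PSMA2 and PSMD2 lacked H3.3 alone, as did 1.40% of all genes.

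The peaks also differed in strength. The scale of the authors' −log10 q differs between lists, so each member's strongest end peak was placed by its percentile among the protein-coding genes with an end peak of the same list. The median member stood at percentile 72.2 for H3K79me2, 59.95 for H2AZ CST, 43.4 for H2AZ Abcam, 36.7 for H4K16ac and 30.1 for H3.3. In the authors' values the median −log10 q was 349 at the 42 members with H3K79me2, against 172 at all 10776 genes with it. For H3.3 it was 14.3 at 37 members, against 23.6 at 12548 genes, and for H4K16ac 8.49 at 28 members, against 10.2 at 10696 genes. The H2AZ antibodies did not place the members alike: the median −log10 q was 41.7 for members and 35.04 for all genes in the CST list, and 91.2 for members and 105 for all genes in the Abcam list. Peaks of H2AZ, H3.3 and H4K16ac at members were narrow, with median widths of 288 bp for H4K16ac (against 340.0 bp at all genes), 363 bp for H3.3 (442 bp), 460 bp for H2AZ CST (509 bp) and 510.0 bp for H2AZ Abcam (694 bp). The H3K79me2 peaks were wide, with a median of 2963 bp at members, against 2129 bp at all genes.

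**Figure D2:**
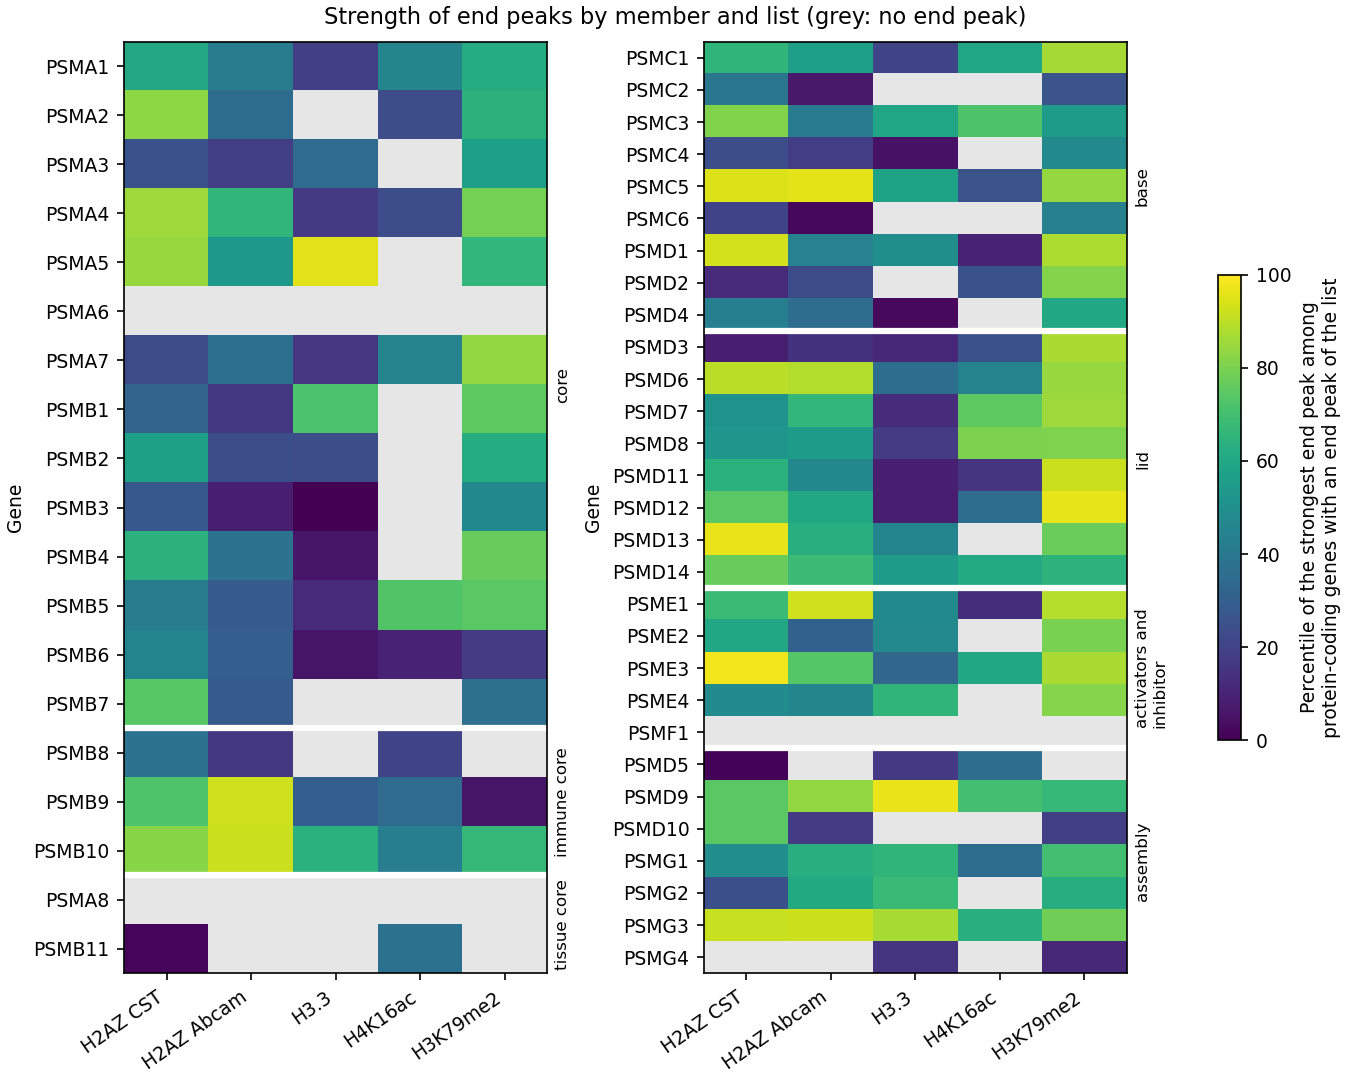
Percentile of each member's strongest end peak (colour, 0 to 100) among the protein-coding genes with an end peak of the same list, for the 48 proteasome genes (rows, by class) and the 5 lists (columns); grey cells have no end peak. The H3K79me2 column is the brightest, with a median of 72.2, and the H3.3 column is dark, with a median of 30.1; PSMA6, PSMA8 and PSMF1 are grey throughout.

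Among the 14 constitutive core genes, all but PSMA6 had both H2AZ lists and H3K79me2 at an end, as did 53.1% of all protein-coding genes. H3.3 lay at 11 of the 14 (against 64.5% of all genes) and H4K16ac at 6 (against 55.0%). PSMA4, which encodes an alpha subunit, had the highest summed −log10 q of the class (chromosome 15, 78540405 to 78552417). Its end peaks had −log10 q of 421 for H3K79me2, 66.7 for H2AZ CST, 143 for H2AZ Abcam, 6.81 for H4K16ac and 9.93 for H3.3. Its H3K79me2 thus stood at percentile 79.2, while its H3.3 stood at 17.1. The RefSeq promoter of PSMA4 (GRCh38.p14, chr15:78540155-78540454, plus strand, from 250 bases before the start to 50 after it) is shown because this member leads its class. H2AZ CST peaks covered 84.0% of the window, H2AZ Abcam peaks 83.7%, H3K79me2 peaks 67.7% and H3.3 peaks 26.0%, while no H4K16ac peak reached it. Capitals in this and the following sequences mark matches to the motifs spelled out further on, here an interferon response core, GC boxes and the core of nuclear respiratory factor.
PSMA4 promoter: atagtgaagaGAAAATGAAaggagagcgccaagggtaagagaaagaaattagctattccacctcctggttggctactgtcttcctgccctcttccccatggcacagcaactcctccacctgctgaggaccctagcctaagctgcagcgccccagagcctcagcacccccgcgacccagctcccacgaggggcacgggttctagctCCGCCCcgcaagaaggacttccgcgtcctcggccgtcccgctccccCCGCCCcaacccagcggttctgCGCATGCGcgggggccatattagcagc

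The proteases of the core showed no single pattern. PSMB5, the chymotrypsin-like subunit and the target of bortezomib, had −log10 q of 372 for H3K79me2, 30.1 for H2AZ CST, 58.7 for H2AZ Abcam, 15.0 for H4K16ac and 8.18 for H3.3. PSMB6, the caspase-like subunit, had all lists at an end but weakly for the mark of DOT1L, with an H3K79me2 −log10 q of 34.2 at percentile 17.4. Its values for the others were 60.6 for H2AZ Abcam, 32.04 for H2AZ CST, 6.39 for H3.3 and 5.13 for H4K16ac. PSMB7, the trypsin-like subunit, had no H3.3 or H4K16ac at an end. Its −log10 q was 53.2 for H2AZ CST, 57.3 for H2AZ Abcam and 102 for H3K79me2. NEK6 lies 158 bp from PSMB7, and the part of NEK6 in these values was not tested. The alpha subunit gene PSMA2 lacked H3.3, with values of 278 for H3K79me2, 73.1 for H2AZ Abcam, 63.0 for H2AZ CST and 6.81 for H4K16ac. MRPL32 lies 202 bp from the start of PSMA2, and the summits of these peaks lay before that start, outside PSMA2. These values therefore cannot be assigned to PSMA2 alone. H3K79me2 still covered 36.7% of PSMA2, while no H4K16ac peak entered it. PSMA5 was the core gene with the strongest H3.3, at a −log10 q of 91.4 and percentile 95.6, and it had no H4K16ac end peak. PSMB3 held the weakest H3.3 peak of all members, at 2.28, near the lowest value of that list (2.05).

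PSMA6, an alpha subunit gene on chromosome 14 (35278558 to 35317493), had no end peak, and its peaks lay inside the annotated gene. The promoter table lists its start sites 13.76 and 13.82 kb from the annotated gene start. An H2AZ CST peak (−log10 q 24.3), an H2AZ Abcam peak (36.1) and an H3K79me2 peak of 8472 bp (170.5) had their summits 235, 245 and 245 bp downstream of the second of these sites. No H3.3 or H4K16ac peak lay in the gene, and H3K79me2 covered 37.9% of it. PSMA1, another alpha subunit gene, had peaks at its annotated start, 142 bp from an end of PDE3B, while its only listed start site lies 123.3 kb inside. At that site it had H3K79me2 at 207, H2AZ Abcam at 64.7, H2AZ CST at 26.1 and H3.3 at 10.7, and no H4K16ac peak. The H4K16ac peaks counted for PSMA1, up to 9.61, were those beside PDE3B.

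The base of the regulatory particle had both H2AZ lists and H3K79me2 at all 9 genes, against 53.1% of all protein-coding genes. H3.3 lay at 6 of the 9 (against 64.5% of all genes) and H4K16ac at 5 (against 55.0%). PSMC5, an ATPase gene on chromosome 17 (63827431 to 63832019), had the highest summed −log10 q of the class. Its end peaks had −log10 q of 479 for H3K79me2, 89.4 for H2AZ CST, 282 for H2AZ Abcam, 7.12 for H4K16ac and 28.5 for H3.3. FTSJ3 lies 232 bp from its start and SMARCD2 62 bp from its far end, so these peaks cannot be assigned to PSMC5 alone. PSMC2, another ATPase gene that starts 18 bp from PMPCB, had the lowest sum, with 28.3 for H2AZ CST, 11.5 for H2AZ Abcam and 58.4 for H3K79me2, and no H3.3 or H4K16ac. PSMC6 also lacked H3.3 and H4K16ac, with lower values for H2AZ CST (16.4) and H2AZ Abcam (6.37) than PSMC2, and 133.5 for H3K79me2. PSMD2, the scaffold that docks ubiquitin receptors and shuttles, lacked H3.3 and had 10.98 for H2AZ CST, 46.0 for H2AZ Abcam, 7.11 for H4K16ac and 445 for H3K79me2. PSMD1, the other large scaffold, had the strongest H3K79me2 of the base, at 535. The promoter of PSMC5 (GRCh38.p14, chr17:63827181-63827480, plus strand) was covered by H2AZ Abcam over 100%, by H2AZ CST over 70.7%, by H3K79me2 over 58.0%, by H3.3 over 15.7% and by H4K16ac over 15.0%. It shows a TATA box, GC boxes and a CCAAT box in capitals.
PSMC5 promoter: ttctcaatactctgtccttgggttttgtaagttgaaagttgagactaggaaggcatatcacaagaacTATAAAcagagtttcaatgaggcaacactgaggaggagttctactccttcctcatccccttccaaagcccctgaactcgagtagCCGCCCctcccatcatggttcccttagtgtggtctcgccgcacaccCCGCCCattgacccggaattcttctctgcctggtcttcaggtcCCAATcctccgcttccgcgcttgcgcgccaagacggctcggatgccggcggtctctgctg

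The lid was the class with the fewest gaps. All 8 genes carried both H2AZ lists, H3.3 and H3K79me2, and 7 carried H4K16ac (against 55.0% of all protein-coding genes). Thus 7 of 8 had all lists, against 38.2% of all genes and 23 of 48 members, which include these 7. Their H3K79me2 was strong throughout, from 283 at PSMD14, the deubiquitinase of the lid, to 696 at PSMD12, with a median percentile of 85.0. Their H3.3 was weak over the same genes, from 7.18 to 27.0, with a median percentile of 15.0. PSMD12, a scaffold subunit of the lid on chromosome 17 (67337916 to 67366577), had −log10 q of 696 for H3K79me2, 53.3 for H2AZ CST, 127 for H2AZ Abcam, 8.31 for H4K16ac and 7.18 for H3.3. It thus stood at percentile 96.4 for H3K79me2 and 8.51 for H3.3. PSMD14, the lowest of the lid by summed −log10 q, had 283 for H3K79me2, 56.1 for H2AZ CST, 150 for H2AZ Abcam, 12.4 for H4K16ac and 27.0 for H3.3. PSMD13 was the lid gene with no H4K16ac end peak; it had the strongest H2AZ CST of the class, at 98.5, and shares its start region with SIRT3, 45 bp away. The promoter of PSMD12 (GRCh38.p14, chr17:67366528-67366827, minus strand) was covered by H3K79me2 over 95.7%, by H2AZ Abcam over 48.7%, by H2AZ CST over 33.0%, by H4K16ac over 26.7% and by H3.3 over 14.3%. It shows a core of the antioxidant response element, a GC box and an ETS core.
PSMD12 promoter: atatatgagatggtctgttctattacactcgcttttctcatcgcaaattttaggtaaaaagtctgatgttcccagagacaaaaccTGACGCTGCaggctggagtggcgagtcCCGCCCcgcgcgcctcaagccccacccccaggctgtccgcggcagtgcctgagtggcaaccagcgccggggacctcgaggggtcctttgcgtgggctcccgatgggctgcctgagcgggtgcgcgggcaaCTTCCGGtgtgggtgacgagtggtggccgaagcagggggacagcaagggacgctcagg

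Among the immune core genes, PSMB10 carried H3K79me2 over most of its length, while PSMB8 and PSMB9 carried none in the gene. PSMB10, which replaces the trypsin-like subunit, lay on chromosome 16 (67934506 to 67936850) and had all lists at an end, with −log10 q of 298.5 for H3K79me2, 62.2 for H2AZ CST, 246 for H2AZ Abcam, 9.03 for H4K16ac and 32.6 for H3.3. Peaks covered much of this gene of 2.35 kb: 91.3% by H3K79me2, 81.3% by H2AZ CST, 68.4% by H3.3, 65.4% by H2AZ Abcam and 31.4% by H4K16ac. The summits of its main peaks lay 763 to 864 bp inside the gene, against medians of 121 bp for H2AZ Abcam, 124 bp for H2AZ CST, 131 bp for H3.3, 220.0 bp with H4K16ac and 222 bp with H3K79me2 over the members with a start peak. PSMB8, which replaces the chymotrypsin-like subunit, had 27.5 for H2AZ CST, 30.1 for H2AZ Abcam and 6.41 for H4K16ac, and neither H3.3 nor H3K79me2 (chromosome 6, 32840717 to 32844679). PSMB9, which replaces the caspase-like subunit, had 10.9 for H3K79me2, 51.6 for H2AZ CST, 249.6 for H2AZ Abcam, 8.16 for H4K16ac and 14.3 for H3.3 (chromosome 6, 32854192 to 32859851). Its H2AZ Abcam stood at percentile 92.6 and its H3K79me2 at 5.74, the lowest of any member with that mark. No H3.3, H4K16ac or H3K79me2 peak entered the body of PSMB8 or PSMB9.

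PSMB8 and PSMB9 lie in the MHC class II region on either side of TAP1, which encodes part of the transporter that carries peptides into the endoplasmic reticulum. The start of PSMB9 lies 488 bp from that of TAP1, in the opposite direction. The summits of the H3.3, H4K16ac and H3K79me2 peaks there were at −663, −557 and −1017 bp from the start of PSMB9, on the side of TAP1, while the strongest H2AZ CST and H2AZ Abcam peaks had summits 88 and 100 bp inside PSMB9. A second H2AZ CST peak (45.5) lay at −584 bp, and the H2AZ Abcam peak of 1545 bp spanned both starts. TAP1, counted over the same windows, had all lists, and its H3K79me2 covered 7.46% of the gene. At the start of PSMB8 the H2AZ summits were 147 and 120 bp inside the gene and the H4K16ac summit was at −249 bp, towards the antisense gene PSMB8-AS1 and TAP1. The nearest H3K79me2 peak on the other side had a −log10 q of 36.4 and lay at TAP2, the partner of TAP1.

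**Figure D3:**
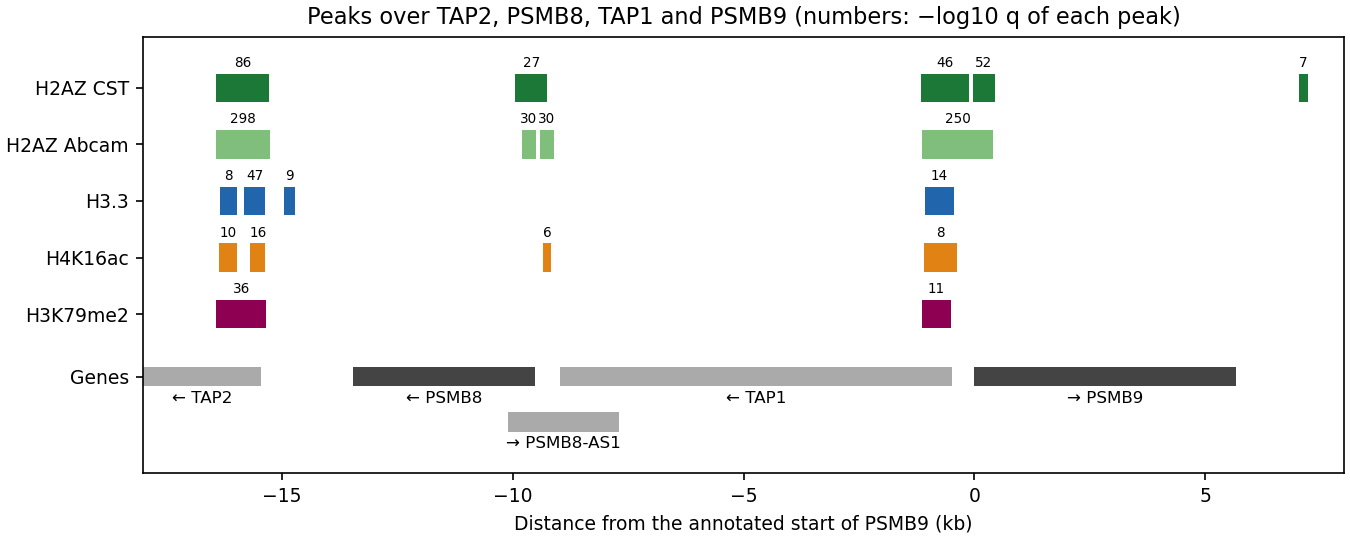
Peaks of the 5 lists (rows of coloured bars, with the authors' −log10 q above each) and annotated genes (dark bars for PSMB8 and PSMB9, grey for others, with arrows beside the names for the direction of transcription) by distance from the annotated start of PSMB9 in kb. H2AZ marks the starts of PSMB8 and PSMB9, while the H3K79me2 peak beside PSMB9, at 10.9, lies over the first part of TAP1 and none lies over PSMB8.

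The promoters of the immune core genes are shown beside each other because these genes share induction by interferon and differed in their peaks (GRCh38.p14: PSMB8 at chr6:32844630-32844929, minus strand; PSMB9 at chr6:32853942-32854241, plus strand; PSMB10 at chr16:67936801-67937100, minus strand). H2AZ CST covered 100% of the window of PSMB8, 73.7% of that of PSMB9 and 32.3% of that of PSMB10. H3K79me2 covered none of the windows of PSMB8 and PSMB9 and 94.3% of that of PSMB10. Capitals mark a GC box in PSMB8; a CCAAT box, GC boxes and the core of an antioxidant response element in PSMB9; and an interferon response core in PSMB10, which begins 21 bases before the start.
PSMB8 promoter: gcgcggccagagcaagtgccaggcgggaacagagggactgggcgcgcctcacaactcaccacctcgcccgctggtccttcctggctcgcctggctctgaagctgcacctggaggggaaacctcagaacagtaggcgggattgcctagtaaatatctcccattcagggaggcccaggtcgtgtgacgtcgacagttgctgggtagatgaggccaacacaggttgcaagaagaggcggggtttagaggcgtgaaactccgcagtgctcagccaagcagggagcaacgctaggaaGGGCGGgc
PSMB9 promoter: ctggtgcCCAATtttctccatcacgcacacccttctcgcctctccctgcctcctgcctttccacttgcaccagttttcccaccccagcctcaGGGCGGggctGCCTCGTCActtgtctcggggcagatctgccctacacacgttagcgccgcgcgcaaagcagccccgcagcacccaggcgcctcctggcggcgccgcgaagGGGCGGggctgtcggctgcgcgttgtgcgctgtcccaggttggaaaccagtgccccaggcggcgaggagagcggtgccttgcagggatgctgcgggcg
PSMB10 promoter: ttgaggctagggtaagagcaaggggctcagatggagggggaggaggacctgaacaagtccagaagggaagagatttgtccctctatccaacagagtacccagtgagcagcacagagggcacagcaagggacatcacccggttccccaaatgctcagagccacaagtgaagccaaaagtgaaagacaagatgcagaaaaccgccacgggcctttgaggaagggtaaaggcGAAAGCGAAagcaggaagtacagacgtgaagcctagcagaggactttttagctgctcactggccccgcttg

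The core genes of specialised tissues carried no H3K79me2, H3.3 or H2AZ Abcam peak. PSMA8, the alpha subunit of the male germ cell proteasome (chromosome 18, 26133869 to 26193355), had no end peak, and the only peak in its 59.5 kb was a weak H2AZ CST peak of 170 bp (−log10 q 7.28), 56.72 kb from the start. PSMB11, the subunit of the thymic cortex (chromosome 14, 23042212 to 23044060), had a weak H2AZ CST peak at its start (5.20, percentile 1.93) and an H4K16ac peak of 406 bp (8.53, percentile 37.1). H3K79me2, H3.3 and H2AZ Abcam were absent inside both genes as well as at their ends. PSMB5, the constitutive counterpart of PSMB11, lies on the same chromosome (23025851 to 23035220) and carried all lists.

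Of the 5 activator and inhibitor genes, 4 carried both H2AZ lists, H3.3 and H3K79me2, and 2 carried H4K16ac. Over all protein-coding genes both H2AZ lists met at 68.2%, H3.3 lay at 64.5%, H3K79me2 at 55.4% and H4K16ac at 55.0%. PSME1, which with PSME2 forms the interferon-induced cap that opens the core, had −log10 q of 553 for H3K79me2, 47.8 for H2AZ CST, 253 for H2AZ Abcam, 5.48 for H4K16ac and 22.8 for H3.3. The H3K79me2 value belonged to its far end, 3 bp from EMC9, and at its own start the value was 70.8. PSME2 had 426 for H3K79me2, 62.3 for H2AZ Abcam, 41.4 for H2AZ CST and 21.9 for H3.3, with no H4K16ac. The start of RNF31, a subunit of the ligase that builds linear ubiquitin chains, lies 265 bp away, and the H3K79me2 summit was at −1228 bp, outside PSME2. Only 9.43% of PSME2 and 19.8% of PSME1 were covered by H3K79me2, although both are shorter than 5 kb. PSME3, the nuclear activator, had the strongest H2AZ CST of all members, at 108 and percentile 97.9, with 166 for H2AZ Abcam and 528 for H3K79me2. PSMF1, an inhibitor of the core in vitro (chromosome 20, 1113263 to 1172246), had no peak at its annotated ends. Its peaks lay at a second listed start 5.339 kb inside the gene, where H2AZ CST reached 70.1, H2AZ Abcam 173, H3.3 6.15, H4K16ac 11.5 and H3K79me2 521.

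Of the 7 assembly genes, 6 had H3K79me2 at an end (against 55.4% of all protein-coding genes), 6 had H2AZ CST (70.7% of all) and 6 had H3.3 (64.5% of all). H2AZ Abcam lay at 5 (71.1% of all) and H4K16ac at 4 (55.0% of all). PSMD5, a chaperone of the base (chromosome 9, 120816053 to 120842922), had no H3K79me2 at an end or inside, with a weak H2AZ CST peak at its start (4.16, percentile 1.02), H3.3 at 9.84 and H4K16ac at 8.44, and no H2AZ Abcam. The transcribed pseudogene CUTALP lies 153 bp from that start. The other chaperones of the base carried H3K79me2. PSMD9 had all lists, with the strongest H3.3 of all members (104, percentile 97.1) and H3K79me2 at 296, and HPD lies 179 bp from its start. PSMD10, known as gankyrin, had 53.3 for H2AZ CST, 32.8 for H2AZ Abcam and 37.4 for H3K79me2, with no H3.3 or H4K16ac. Among the chaperones of the alpha ring, PSMG1 and PSMG3 had all lists. PSMG3 led the class by summed −log10 q, with 409 for H3K79me2, 78.96 for H2AZ CST, 247 for H2AZ Abcam, 12.7 for H4K16ac and 59.7 for H3.3. PSMG4, another of them, had only H3.3 at 9.29 and H3K79me2 at 20.6 at its far end, and SLC22A23 has an end 924 bp from it. The listed start of PSMG4 lies 4.543 kb inside the annotated gene, and there it had H2AZ Abcam at 168, H2AZ CST at 35.2 and an H3K79me2 peak of 5876 bp at 368. PSMG2, the partner of PSMG1, had peaks at both its listed starts, 44.3 kb apart, with H3K79me2 at 260.5 at the first and 390.2 at the second, and H4K16ac at the second alone.

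At the annotated start of the 42 members with a listed strand, H2AZ CST lay at 38 (90.5%, against 70.0% of all genes with one), H2AZ Abcam at 36 (85.7%, against 70.6%), H3.3 at 31 (73.8%, against 62.8%), H4K16ac at 25 (59.5%, against 50.8%) and H3K79me2 at 35 (83.3%, against 56.5%). With windows placed at the listed start sites in place of the annotated ends, more members were counted. The promoter table held 42 of the 48 members (all but PSMA7, PSMB1, PSMB6, PSMB7, PSMD4 and PSMG3) and 15412 protein-coding genes. A peak lay within 1 kb of a listed site at 41 of 42 members for H2AZ CST (97.6%), against 73.4% of all genes with a listed site. H2AZ Abcam lay there at 39 members (92.9%, against 74.0%), H3K79me2 at 38 (90.5%, against 59.6%), H3.3 at 33 (78.6%, against 66.1%) and H4K16ac at 26 (61.9%, against 54.5%). The members with no H3K79me2 at a listed site were PSMA8, PSMB11, PSMB8 and PSMD5. A peak over the promoter window itself was found at 37 members for H2AZ CST (88.1%, against 59.5%), 33 for H2AZ Abcam (78.6%, against 64.0%), 34 for H3K79me2 (81.0%, against 47.0%), 22 for H3.3 (52.4%, against 44.5%) and 12 for H4K16ac (28.6%, against 27.2%). Only the first listed promoter of each gene entered this count. That of PSMF1 had no peak of any list, although its peaks lay at its second listed start. For H3.3 and H4K16ac the intervals of all these start counts held the value of all genes, and for H2AZ Abcam that of the promoter window did. Fewer members had peaks at the far end: 2 of 42 members had H2AZ CST there (4.76%, against 8.55% of all), 2 had H2AZ Abcam (against 8.02%), 3 had H4K16ac (7.14%, against 19.4%), 8 had H3K79me2 (19.0%, against 9.42%) and 10 had H3.3 (23.8%, against 21.1%). The far-end interval of each list held the value of all genes, that of H3K79me2 running from 8.60 to 34.1%. Of the 8 with H3K79me2, PSMB4 and PSMB10 are genes of under 3 kb where 1 peak reached the windows of both ends, and PSMB4, PSMC5, PSME1 and PSMG4 have a neighbour in the far window. Inside the gene or at its edges, H2AZ CST touched 47 of 48 members (against 75.1% of all genes), H2AZ Abcam 45 (76.3%), H3.3 36 (68.0%), H4K16ac 27 (61.0%) and H3K79me2 43 (58.3%).

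Peaks of H2AZ, H3.3 and H4K16ac were absent from 1 to 2 kb inside the members examined, where H3K79me2 ran on. Profiles were taken over the 22 members of at least 10 kb with a listed strand and H3K79me2 at the annotated start, beside the 6938 protein-coding genes that met the same conditions. The 22 include PSMA1, whose annotated start lies 142 bp from an end of PDE3B and whose only listed start site lies 123.3 kb inside. In the first 500 bp, peaks covered on average 92.0% of bases for H3K79me2 in members and 80.5% in all, 70.5% and 63.3% for H2AZ CST, 70.4% and 73.5% for H2AZ Abcam, and 44.5% and 45.3% for H3.3. From 1 to 2 kb inside, 0 of 22 members had a peak of any of the other lists, whereas 20.9% of all such genes had H2AZ CST, 22.3% H2AZ Abcam, 25.3% H3.3 and 13.7% H4K16ac. H3K79me2 there still covered 87.1% in members, against 65.8% in all. From 2 to 5 kb, 1 of 22 members had H3.3, against 15.9% of all such genes, and 1 had H4K16ac, against 10.2%. H3K79me2 covered 59.0% of that stretch in members and 41.7% in all, and from 5 to 10 kb 22.04% in members and 24.2% in all.

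**Figure D4:**
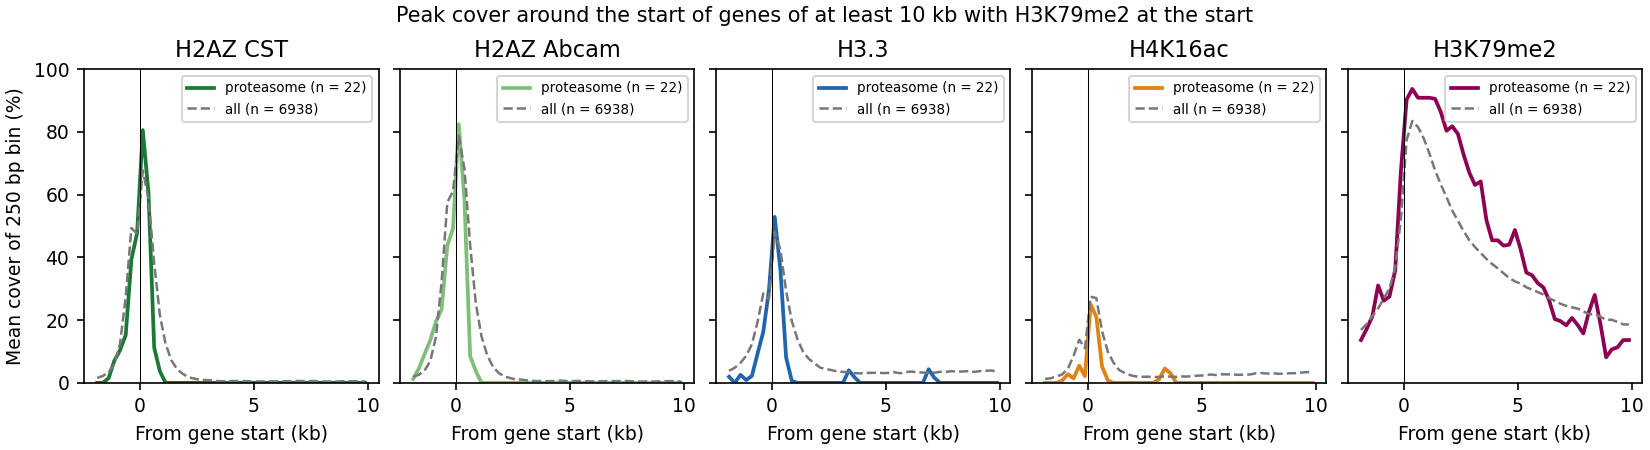
Mean share of each 250 bp bin covered by peaks (percent, y axis) against distance from the annotated gene start in kb (x axis), 1 panel per list, for 22 proteasome genes (solid) and 6938 protein-coding genes (dashed) of at least 10 kb with H3K79me2 at the start. Inside the gene H3K79me2 stays above the dashed line up to 6250 bp (59.0% against 41.7% from 2 to 5 kb), while the other lists are at 0 in members from 1 to 2 kb.

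H3K79me2 covered a median of 21.1% of a member, against 1.37% of all protein-coding genes, and members are shorter, with a median length of 13.6 kb against 25.6 kb. Among genes with an H3K79me2 end peak the medians were 24.97% in members and 11.5% in all. The median was higher in members in each length class: 65.0% against 54.5% from 1 to 5 kb (7 members), 34.7% against 28.4% from 5 to 10 kb (9), 24.97% against 17.9% from 10 to 20 kb (12), 19.8% against 11.7% from 20 to 40 kb (7) and 13.2% against 5.38% from 40 to 200 kb (7). Each member median still lay between the quartiles of all such genes in its class, which were 27.3 and 86.4% from 1 to 5 kb. Members of that class ran from 9.43 to 91.3%. In length the covered part was less far apart, with medians of 3.35 kb in members and 2.66 kb in all. At least 50% of the gene was covered in 7 members (14.6%, interval 6.07 to 27.8%), against 7.46% of all genes, a value inside the interval. The highest cover was found at PSMB10 (91.3%), PSMG3 (80.8%) and PSMB4 (72.4%), all under 3 kb long. PSME4, the large activator of sperm and DNA repair, had the largest covered total, 19.5 kb of its 107 kb, summed over 7 peaks. No H3K79me2 peak touched PSMB8, PSMB9, PSMB11, PSMA8 or PSMD5. Median cover by H2AZ CST was 2.66% (against 1.05% over all genes), by H2AZ Abcam 2.25% (1.197%), by H3.3 1.71% (0.832%) and by H4K16ac 0.585% (0.497%). Among genes with an end peak of the list, the medians were 2.70% in members and 1.803% in all for H2AZ CST, 2.75% and 2.00% for H2AZ Abcam, but 2.54% and 2.70% for H3.3, and 2.24% and 3.28% for H4K16ac. The covered length in these genes was shorter in members for all of these lists, at 0.362 kb against 0.557 kb for H2AZ CST, 0.403 kb against 0.631 kb for H2AZ Abcam, 0.372 kb against 0.709 kb for H3.3, and 0.299 kb against 0.601 kb for H4K16ac.

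**Figure D5:**
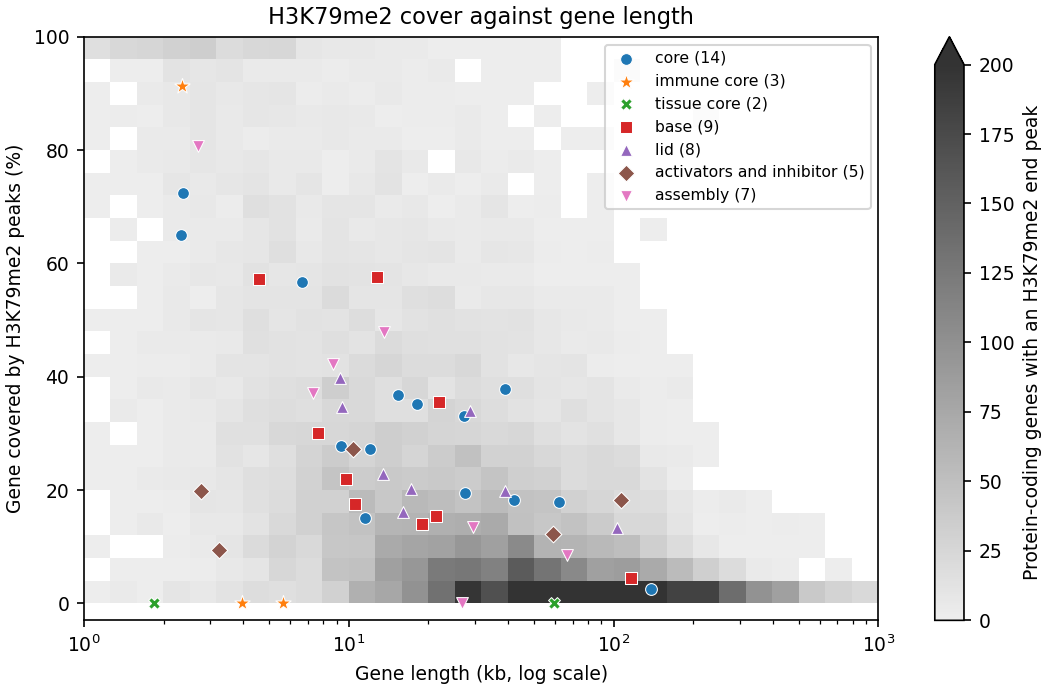
Share of the gene covered by H3K79me2 peaks (percent, y axis) against gene length in kb (x axis, log scale) for the 48 proteasome genes (symbols by class, with the number in each class) over the density of all protein-coding genes with an H3K79me2 end peak (grey). Cover runs from 91.3% at PSMB10 (2.35 kb) to 2.47% at PSMA1, the longest member, and 5 members lie at 0.

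Members with H4K16ac had higher median percentiles of H2AZ and H3K79me2 than members without it. Among the 42 members with both H2AZ lists, the 26 with H4K16ac had a median percentile of 80.7 for H3K79me2 (25 members with a peak) and 57.9 for H2AZ Abcam, and the 16 without it had 61.0 and 26.2. The H3K79me2 percentiles overlapped, running from 5.74 to 96.4 with H4K16ac and from 18.8 to 81.9 without it. H3.3 went the other way, with a median percentile of 30.1 in the 23 members that had H3.3 and H4K16ac and 40.1 in the 12 that had H3.3 without H4K16ac. The H3.3 percentiles overlapped too, running from 5.84 to 97.1 and from 0.00797 to 95.6. The 7 members with both H2AZ lists and no H3.3 (PSMA2, PSMB7, PSMB8, PSMC2, PSMC6, PSMD2 and PSMD10) stood low for H2AZ Abcam, at a median percentile of 17.5, against 53.5 for the 35 with H3.3. Their percentiles ran from 2.12 to 35.5, within reach of the 8.52 to 96.1 of those with H3.3. These are descriptions of members of the same libraries and carry no test. The same splits were not made over all genes.

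Of the members, 19 had an end of another protein-coding gene within 1 kb of one of their own ends, and 29 had none. All lists were found at 9 of the 19 and at 14 of the 29. Among the 29, H2AZ CST lay at 27, H2AZ Abcam at 25, H3.3 at 23, H4K16ac at 17 and H3K79me2 at 25. Median −log10 q of H3K79me2 was 397 at members with a neighbour and 299 at those without, and that of H3.3 was 18.3 and 11.1. The part of the neighbours in these values was not tested.

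Motifs were searched on both strands of the 300-base promoters of the 42 members and the 15412 protein-coding genes that had one. Where a gene had more than 1 promoter listed, only the first was searched. The antioxidant response element core TGACNNNGC, which NFE2L1 and NFE2L2 bind, was found in 13 members (31.0%), against 14.4% of all promoters. They were PSMB3, PSMB9, PSMC4, PSMD1, PSMD3, PSMD5, PSMD9, PSMD12, PSME1, PSME2, PSME4, PSMG1 and PSMG2. The ETS core CCGGAAG was also found in 13 members (31.0%), against 14.5% of all. The interferon response core GAAANNGAA was found in 7 (16.7%, against 6.86%), namely PSMA4, PSMB4, PSMB10, PSMC2, PSME1, PSME2 and PSMG4. The CCAAT box CCAAT was found in 19 (45.2%, against 36.0%), the GC box GGGCGG in 28 (66.7%, against 59.6%) and the TATA box TATAAA in 5 (11.9%, against 8.88%). The YY1 core AAGATGGCG was found in 2 (4.76%, against 2.80%) and the core of nuclear respiratory factor CGCATGCG in 1 (2.38%, against 2.96%). None of these motifs contains another. Members and all promoters were alike in base composition, with a median G and C content of 62.0% and 63.0% and a ratio of observed to expected CpG of 0.774 and 0.769. A match says only that these letters occur in the window.

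Other genes of the pathway, taken from a list of 37, carried the lists at these counts. H2AZ CST lay at 36 of 37 (against 70.7% of all genes), H2AZ Abcam at 36 (71.1%), H3K79me2 at 35 (55.4%), H3.3 at 32 (64.5%) and H4K16ac at 27 (55.0%), and 24 had all lists (38.2%). The subunits outside the naming rule had H3K79me2 at all 3: ADRM1, a ubiquitin receptor, at a −log10 q of 623 with 91.4% of the gene covered, SEM1, a small lid subunit, at 272.5, and POMP, the maturation factor of the core, at 358. POMP had no H4K16ac end peak. NFE2L1 and NFE2L2, which encode transcription factors of proteasome and oxidative stress genes, had all lists, with H3K79me2 over 62.3% and 71.2% of the gene, and so did the protease gene DDI2. The 14 genes of bound enzymes and receptors had both H2AZ lists and H3K79me2 throughout, H3.3 at 12 and H4K16ac at 9, and UBQLN2 was covered by H3K79me2 over 100%. Among the 7 genes of antigen processing, NLRC5, the activator of MHC class I genes, had H2AZ Abcam at 243 and no H3K79me2. TAP1 and TAP2 had all lists, with H3K79me2 at 10.9 and 36.4, low beside 382 at B2M, the light chain of MHC class I.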

How the data were processed

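ChIP-seq libraries of 5 antibodies in HEK293T cells were used as the authors' peak lists, each called from 1 library. Fixation was in 1% formaldehyde over 10 min, per the labels' protocols, and each library started from 10 ng of DNA with 13 amplification cycles. Per the submitters' processing notes, Bowtie 1.1.2, MACS2 2.1.0 and build hg38 were used; the sources used here give no settings, read depth or use of the input. The deposited columns used were position and summit, the authors' fold enrichment (a linear ratio), and the authors' −log10 q-value; the deposited score and −log10 p-value were not used. The lists held 44645 to 76770 deposited peaks, with a lowest −log10 q of 2.00 to 2.06.

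Genes, start sites and promoter sequences came from RefSeq tables of GRCh38.p14, without exons or a genome. For a gene with more than 1 promoter, the first listed was used for promoter cover, motifs and printed sequences. Python 3.11.15 with numpy 2.4.6, pandas 2.3.3 and scipy 1.17.1 was used, and the overlap code was tested on simulated data. An end peak overlapped the window of 1 kb around either gene end by at least 1 bp; cover is the share of gene bases under peaks. Fold values were kept beside each peak and are not reported. Members and gene lists were chosen with earlier results of these data known. Named genes were all members of the immune and tissue core, the highest and lowest of each other class by summed −log10 q, members lacking an H2AZ, H3.3 or H3K79me2 end peak, those with the highest and lowest H3K79me2 cover, and neighbours within 1 kb. Other members named beside these (PSMB3, PSMB5, PSMB6, PSMA5, PSMA1, PSMD1, PSMD9, PSMD13, PSME2, PSME3, PSME4, PSMG1 and PSMG2) were named after their values were seen. Alternatives were other windows, summits, stricter peak sets, gene starts, listed start sites and genes of any length. No sample was replicated, so no test was made.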

Additional observations from a re-analysis of the deposited data

How the results depend on the processing

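Alternatives were windows of 500 bp or 2 kb, summits in place of overlap, a −log10 q of at least 5 and gene starts alone. Each kept every count of members within 1.5 times of the reported one. A count such as 44 of 48 could not rise by that factor. Genes of any length gave the same 48 members, so that alternative could not move any value. Of 70 alternative values, 56 stayed within the limits set, those for genes of any length among them. With the 10000 strongest peaks of each list, end peaks were counted at 28 members for H2AZ CST (58.3%, against 37.4% of all genes), 20 for H2AZ Abcam (41.7%, against 39.4%), 10 for H3.3 (20.8%, against 28.3%), 4 for H4K16ac (8.33%, against 16.3%) and 38 for H3K79me2 (79.2%, against 43.4%); fewer peaks enter by construction. Median cover with those peaks was 0.345% for H2AZ CST, 0% for H2AZ Abcam and H3.3, and 17.2% for H3K79me2. With 1 kb added on both sides of the gene the median cover was 4.40% by H2AZ CST, 4.23% by H2AZ Abcam and 1.17% by H4K16ac. Median H4K16ac cover was 0.248% at a −log10 q of at least 5 and 0% with the 10000 strongest peaks. Counts over the 29 members with no other protein-coding end in the window, an alternative chosen after seeing the data, were 27, 25, 23, 17 and 25 for H2AZ CST, H2AZ Abcam, H3.3, H4K16ac and H3K79me2, lower because fewer members enter. Listed start sites were also chosen after seeing the data. No paired analysis was possible because each antibody had 1 library and no comparison came from a test; no replicate could be left out. The depth of each library is unknown, so the absence of a peak does not show the absence of the mark.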

Other observations

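Of 51 annotated pseudogenes named after a member, 1 had an H2AZ CST and an H2AZ Abcam peak within 1 kb of an end (PSMD12P1), 2 had H3K79me2 (PSMD7P3 and PSMD10P1), and none had H3.3 or H4K16ac. Over all 16664 annotated pseudogenes H2AZ CST was found at 5.12%, H2AZ Abcam at 5.32%, H3.3 at 4.67%, H4K16ac at 5.07% and H3K79me2 at 4.75%.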
